A study of Mus musculus with 6 samples.

Results

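Collagen genes were compared in inguinal white fat, which lies under the skin of the groin, between mice with a history of broken sleep and control mice. Members were the rows of the expression table whose Ensembl identifier carried a mouse symbol of the form Col, number, a, number, with a mean of at least 1 over the 6 libraries. Of 25894 genes in the table, 43 carried such a symbol and 42 passed the mean, all of them among the 22290 genes tested. They fell into 9 genes of fibrillar collagens, 6 of the type IV collagens of basement membranes, 6 of the type VI collagens that form beaded filaments, and 21 of other classes. Just inside the minimum lay Col19a1, with a mean of 1.06, and Col22a1, with 1.48, and just outside lay Col24a1, with 0.704. All animals were female C57BL/6N mice, described as 15 weeks old, fasted for 10 h before the tissue was taken, and each library held the RNA of 1 mouse. In 1 group, 3 mice had 8 weeks of sleep fragmentation followed by 2 weeks of sleep recovery (labelled SF 8w-SR 2w, called fragmented 1 to 3 here). The other group was 3 control mice (control 1 to 3). The comparison asks which collagen transcripts differed from controls after fragmentation and recovery, and no library here was taken before recovery.

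Collagens are secreted proteins whose chains wind around each other in a helix built on repeats with glycine at a fixed place. Fibrillar collagens, mainly types I and III, form the load-bearing fibres around fat cells and in the septa between fat lobules, and are made chiefly by fibroblasts and adipocyte progenitors. Type IV collagen forms the sheet of the basement membrane that encloses every adipocyte and every capillary, and type VI collagen forms filaments that link this sheet to the fibres and is abundant in fat.

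Several collagen genes lie next to each other in the genome. In the RefSeq annotation (GRCm38.p6) 8 pairs of members were neighbours among protein-coding genes, among them Col4a1 with Col4a2, Col4a3 with Col4a4, Col4a5 with Col4a6, Col6a1 with Col6a2, and Col3a1 with Col5a2. Col4a1 and Col4a2 are read in opposite directions, and their RefSeq starts are placed so that the first bases of each transcript lie in the other. These 22 bases, from one start to the other, are shown on both strands because the pair had similar log2 differences, with capitals for a GC box, GGGCGG, searched on both strands. They lie at chr8:11312805-11312826, GRCm38.p6, sequence from RefSeq.
Col4a2, plus strand: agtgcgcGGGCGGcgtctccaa
Col4a1, minus strand: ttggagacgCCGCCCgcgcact

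The sequences upstream of the fibrillar Col5a3, Col5a1 and Col3a1 are shown next because, of these, only Col3a1 had overlapping groups in the deposited values. Each is the 250 bases before the RefSeq start (GRCm38.p6), on the strand of the gene, and holds no exon of the GENCODE M21 annotation. Capitals mark the GC box, the CCAAT box, named by its letters, or the TATA box, whose letters are TATAAA, on either strand. No marked motif overlaps another. The Col5a3 sequence is at chr9:20815068-20815317 (minus strand), that of Col5a1 at chr2:27886175-27886424 (plus strand) and that of Col3a1 at chr1:45311288-45311537 (plus strand).
Col5a3: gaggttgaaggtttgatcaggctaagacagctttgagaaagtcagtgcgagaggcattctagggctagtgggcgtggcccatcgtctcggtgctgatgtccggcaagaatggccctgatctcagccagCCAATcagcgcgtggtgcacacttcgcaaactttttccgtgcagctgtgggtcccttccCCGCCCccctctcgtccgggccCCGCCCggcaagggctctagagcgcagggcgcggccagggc
Col5a1: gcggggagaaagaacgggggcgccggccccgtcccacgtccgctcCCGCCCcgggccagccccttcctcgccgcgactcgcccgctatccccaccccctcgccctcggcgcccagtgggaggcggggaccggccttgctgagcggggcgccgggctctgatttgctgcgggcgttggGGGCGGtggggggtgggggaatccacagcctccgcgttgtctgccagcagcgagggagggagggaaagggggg
Col3a1: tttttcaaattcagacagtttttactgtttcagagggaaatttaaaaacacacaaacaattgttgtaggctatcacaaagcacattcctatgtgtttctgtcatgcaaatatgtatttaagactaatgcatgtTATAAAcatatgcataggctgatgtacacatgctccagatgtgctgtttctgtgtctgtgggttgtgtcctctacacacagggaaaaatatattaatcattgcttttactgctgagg

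G and C made up 62.8% of the Col5a3 sequence, 76.4% of the Col5a1 sequence and 35.2% of the Col3a1 sequence. RefSeq windows from 250 bases before to 50 after the start were at hand for 34 of the 42 genes, 37 windows in all. The GC box was in 62.2% of these windows and in 35.7% of all 32851 windows of the same length. The CCAAT box was in 35.1% of the collagen windows against 37.4% of all, and the TATA box in 13.5% against 13.6%. The AP-1 site, TGANTCA, was in 2.7% of collagen windows, that of Col6a1 alone, against 7.81%. These matches describe letters and not bound sites.

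The 6 libraries held between 15610201 and 19703569 recovered reads. On the first principal component, with 42.3% of the variance, controls 2 and 3 lay at 116.2 and 111.5, and the other 4 libraries between -90.6 and 8.8. The label of fat was borne out by adipocyte markers, all 7 of 7 measured, whose summed values ran from 116928 to 391230. Other tissues were present in uneven amounts. B cell markers summed to 7006 in fragmented 2, 19086 in control 2 and 9092 in control 3, and to between 41.5 and 53.9 in the other libraries. Skeletal muscle markers summed to 68587 in fragmented 1 and 8957 in control 2, and to at most 1755 elsewhere. The part these differences had in the results below was not tested, except where values without a library are given.

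No collagen gene passed the threshold between fragmented and control mice. With limma on log2(value + 1), where a value is a read count divided by the size factor of its library, 0 of 42 passed a Benjamini-Hochberg FDR of 0.05, against 0% of all 22290 genes. The smallest limma adjusted p among the 42 was 0.697. Unadjusted, limma put 3 collagen genes under 0.05, all higher, beside 3.24% of all genes higher and 2.14% lower. edgeR on recovered reads called 0 collagen genes and put 2 under 0.05 unadjusted, beside 4.67% of all genes. DESeq2 called 0 and put 1 under 0.05 unadjusted, beside 5.64% of all genes. limma-voom with quality weights called 0 and put 8 under 0.05 unadjusted, beside 24% of all genes. Without control 1, limma called 1 of the 42 collagen genes, Col8a2, beside 844 of all genes (3.79%), and put 8 under 0.05 unadjusted, beside 24.4% of all genes.

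Below that threshold the abundant collagens did not all sit alike. In 8 of 42 members (19%) all 3 fragmented mice lay above all 3 controls, a pattern found in 5.02% of all genes, and in 0 members did they all lie below, against 3.58% of all genes (8.59% in either direction). The 8 were Col4a1 and Col4a2 of the basement membrane, Col6a1 and Col6a2 of the beaded filaments, the fibrillar Col5a1 and Col5a3, and Col18a1 and Col9a3. Once the dependence of each library on the GC content and length of transcripts had been taken out, 1 of the 42 kept separate groups, Col6a2, against 4.76% of all genes higher. Over the 42 genes the median log2 difference was 0.22, with 26 members above 0 and 16 below, beside a median of 0.02 and 51.6% above 0 for all genes. A cut at a mean of at least 1000 was not among the planned comparisons. Above it, the groups were separate and higher in 7 of 14 collagen genes and in 2.4% of 3540 genes. They were separate and lower in 0 of these collagen genes and in 4.49% of these 3540 genes. In whole tissue, more cells of a type and more RNA per cell cannot be told apart.

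**Figure D1:**
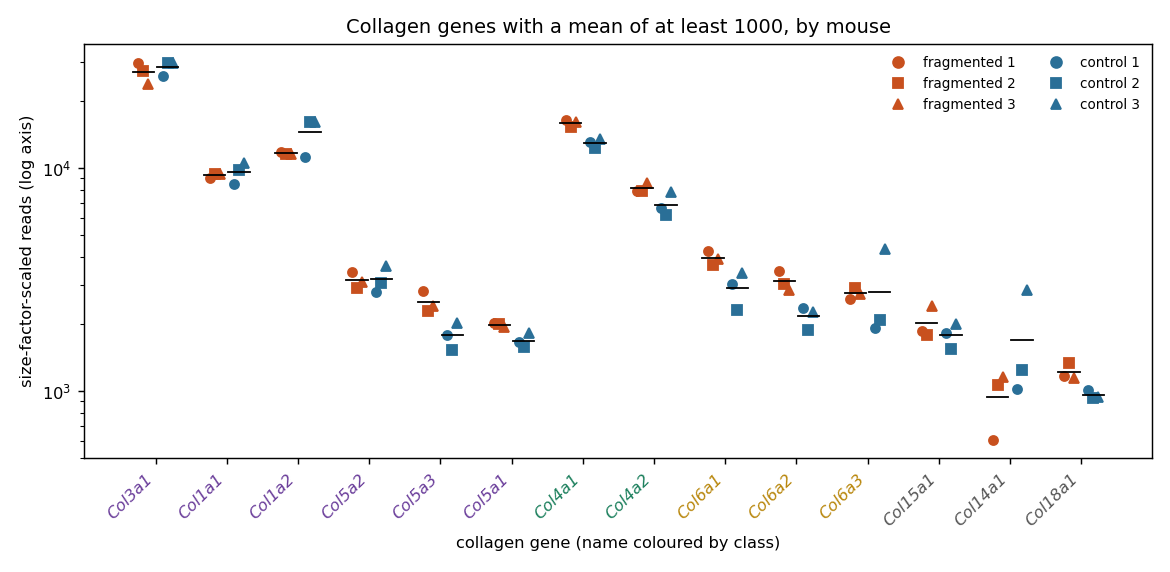
Size-factor-scaled reads (log axis) of the 14 collagen genes with a mean of at least 1000, 1 point per mouse with group means as bars, gene names coloured by class. The fragmented mice lie above all controls for Col4a1, Col4a2, Col6a1, Col6a2, Col5a1, Col5a3 and Col18a1, and overlap the controls for Col3a1, Col1a1 and Col1a2.

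Among fibrillar genes, Col3a1, which encodes the chain of type III collagen, had the highest level per length of all 42 members. Its mean was 2822 reads per kb of exon, rank 207 among the genes tested. Its values were 29735 (fragmented 1), 27248 (fragmented 2) and 23908 (fragmented 3), against 25897, 29692 and 29694 in controls 1 to 3. The groups overlapped, and the log2 difference was -0.08 (SE 0.29). Col1a1, the alpha-1 chain of type I collagen, had 9048, 9436 and 9432 in the fragmented mice and 8500 (control 1), 9844 (control 2) and 10575 (control 3), a log2 difference of -0.05 (SE 0.24). Col1a2, the alpha-2 chain of the same protein, had 11885, 11628 and 11548 against 11203, 16088 and 16201. Here controls 2 and 3 were high and control 1 was below every fragmented mouse, with a log2 difference of -0.29 (SE 0.27). The 95% intervals of these differences reached from -0.74 to 0.58 for Col3a1, from -0.58 to 0.49 for Col1a1 and from -0.89 to 0.31 for Col1a2.

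Type V collagen is a minor fibril collagen that sits inside type I fibrils and sets their diameter. Col5a3 encodes its alpha-3 chain, with values of 2824, 2295 and 2404 in the fragmented mice and 1783, 1536 and 2013 in the controls. Every fragmented mouse was above every control, by a fold of 1.41 (log2 difference 0.50, SE 0.22, limma adjusted p = 0.697). The fold was 1.18 for Col5a1, the alpha-1 chain, whose values were 2018 (fragmented 1), 2003 (fragmented 2) and 1945 (fragmented 3) against 1659.5, 1575 and 1824 (log2 difference 0.24, SE 0.21, limma adjusted p = 0.746). Col5a2, the alpha-2 chain, had a log2 difference of -0.01 and overlapping groups, with means of 3144 ± 272 (SD, n = 3) and 3170 ± 436. With GC and length trends removed, the groups overlapped for Col5a3 and Col5a1 too, with log2 differences of 0.19 (SE 0.22) and 0.08 (SE 0.18). The remaining fibrillar members, Col27a1, Col11a1 and Col11a2, known best from cartilage, were scarce, with means from 20.2 to 121, and differences from 0.31 to 0.57. Over the 9 fibrillar genes the median log2 difference was 0.24, with 5 members above 0.

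In the basement membrane class, Col4a1 and Col4a2 made up nearly all reads. Their chains join in the type IV molecule found in almost every basement membrane. Col4a1 had values of 16524, 15290.0 and 16067 in the fragmented mice and 13100 (control 1), 12282 (control 2) and 13591 (control 3). The lowest fragmented mouse was above the highest control, and the fold was 1.23 (log2 difference 0.30, SE 0.25, limma adjusted p = 0.736). For Col4a2 the values were 7911, 7928 and 8573 against 6614, 6146 and 7802. The groups were separate by a narrow margin, between fragmented 1 and control 3, with a fold of 1.19 (log2 difference 0.25, SE 0.23, limma adjusted p = 0.754). On TMM-scaled log2 CPM the Col4a2 groups overlapped, and with GC and length trends removed its log2 difference was -0.03, while that of Col4a1 was 0.13 (SE 0.20). The transcripts overlap at their starts on opposite strands, and whether counting used strand is not given in the sources used here, so reads in that short stretch cannot be assigned.

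The other type IV genes encode chains of specialised basement membranes such as those of kidney, skin and smooth muscle. Col4a5 had 186, 360 and 635 in the fragmented mice and 424, 234 and 277 in the controls, with overlapping groups and a log2 difference of 0.21 (SE 0.45). The difference of Col4a5 was -0.22 without fragmented 3 and 0.66 without fragmented 1. Col4a6, its neighbour on the X chromosome, ran from 90.2 to 488 in the fragmented mice and from 117 to 343 in the controls. Col4a3 and Col4a4 had means of 29.2 and 50.4. Over the 6 type IV genes the median log2 difference was 0.23, with 5 above 0.

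Type VI collagen is assembled from an alpha-1, an alpha-2 and a much longer chain, which in fat is mainly Col6a3. Col6a2 had values of 3455 (fragmented 1), 3015 (fragmented 2) and 2847 (fragmented 3) and 2353, 1884 and 2269 in the controls. All fragmented mice were above all controls, with a fold of 1.43 (log2 difference 0.52, SE 0.22, limma adjusted p = 0.697). It was the member whose groups stayed separate with GC and length trends removed, at a log2 difference of 0.46 (SE 0.20). Col6a1 had 4248, 3698 and 3932 against 3022, 2316 and 3381, also with separate groups, and a fold of 1.38 (log2 difference 0.46, SE 0.23, limma adjusted p = 0.697). Trends removed, the Col6a1 groups overlapped at 0.21 (SE 0.20).

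Col6a3 had 2599, 2907 and 2723 in the fragmented mice and 1923, 2088 and 4353 in the controls. Control 3 was above, and the other controls below, every fragmented mouse, and the log2 difference was 0.08 (SE 0.32), turning to 0.45 without control 3 and to -0.003 with edgeR. The genes of the alternative long chains were scarce and uneven. Col6a4 had 2.07 in fragmented 1, 81.2 in fragmented 2 and 32.5 in fragmented 3, against 6.39 in control 1, 146 in control 2 and 59.0 in control 3. Its log2 difference of -0.98 (SE 1.34) turned to 0.38 without fragmented 1. Col6a5 reached 147 in control 2 and 54.6 in control 3, followed by 29.6 in fragmented 2, and was at most 11.7 in the others. Those same 3 libraries were the ones high in B cell markers, and the part of lymphoid tissue in these values was not tested. Col6a6 had a log2 difference of -0.46 (SE 0.71). Over the 6 type VI genes the median was -0.19, with 3 members above 0 and 3 below, and it was above 0 without fragmented 1 (0.25), control 2 (0.13) or control 3 (0.295).

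Among the other classes, the multiplexins Col15a1 and Col18a1 encode collagens of the basement membrane zone that carry glycosaminoglycan chains, and the end of Col18a1 yields the fragment endostatin. Col18a1 had 1167, 1344 and 1148 in the fragmented mice and 1015, 934 and 941 in the controls. The groups were separate, with a fold of 1.26 (log2 difference 0.34, SE 0.21, limma adjusted p = 0.697), and overlapped at 0.06 (SE 0.19) with trends removed. Col15a1 had 1865, 1783 and 2407 against 1828, 1541 and 2004, with overlapping groups and a log2 difference of 0.17 (SE 0.23).

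The fibril-associated collagens lie on the surface of fibres. Col14a1, the most abundant of them, had 606 (fragmented 1), 1064 (fragmented 2) and 1157 (fragmented 3) against 1026, 1243 and 2835. Control 3 was more than any other library and fragmented 1 less, and the log2 difference of -0.76 (SE 0.40, limma adjusted p = 0.697) was -0.32 without control 3 and -1.05 without control 1. Col9a3, a chain of the cartilage collagen IX, had 41.5, 37.9 and 64.1 in the fragmented mice and 37.3, 7.91 and 6.68 in the controls. Its groups were separate by a margin of less than 1 between fragmented 2 and control 1, at a log2 difference of 1.79 (SE 0.74, limma adjusted p = 0.697), and overlapped with trends removed. Col16a1 had a log2 difference of 0.77 and Col12a1 of -0.28, and the groups of both overlapped.

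The remaining members were of lower level. Col8a2, a chain of the network collagen VIII, had 24.9, 28.8 and 42.4 in the fragmented mice and 26.7 in control 1, 2.26 in control 2 and 0 in control 3. Control 1 lay among the fragmented mice, and the 0 reads of control 3 allow a value of up to 3.34, from counting error alone. The log2 difference of Col8a2 was 2.85 (SE 1.13, limma adjusted p = 0.697), and 4.16 without control 1, where its limma adjusted p was 0.0440. It was 1.76 without control 3, 1.73 with both edgeR and DESeq2, and 0.22 against control 1 alone. Its partner chain Col8a1 went the opposite way, from 171 to 623 in the fragmented mice and from 380 to 811 in the controls, at -0.70 (SE 0.48). Col7a1, which forms the anchoring fibrils under skin epithelium, had 22.8, 63.0 and 73.1 against 61.8, 37.3 and 0, and its log2 difference of 1.85 (SE 1.38) was -0.02 without control 3, 0.70 with edgeR and 0.68 with DESeq2. Col17a1, a transmembrane collagen of the hemidesmosomes of epithelial cells, had 115, 316 and 521 against 331, 87.0 and 100, at 0.90 (SE 0.64). Col28a1, known from peripheral nerve, had 173 ± 21.4 (SD, n = 3) and 188 ± 45.3. Col13a1, Col20a1, Col23a1, Col25a1 and Col9a2 had means from 31.4 to 77.4, and Col9a1, Col10a1, Col26a1, Col22a1 and Col19a1 had means from 1.06 to 6.45, each with 0 reads in at least 1 library. The median log2 difference of the 21 genes of other classes was 0.34, with 13 above 0.

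**Figure D2:**
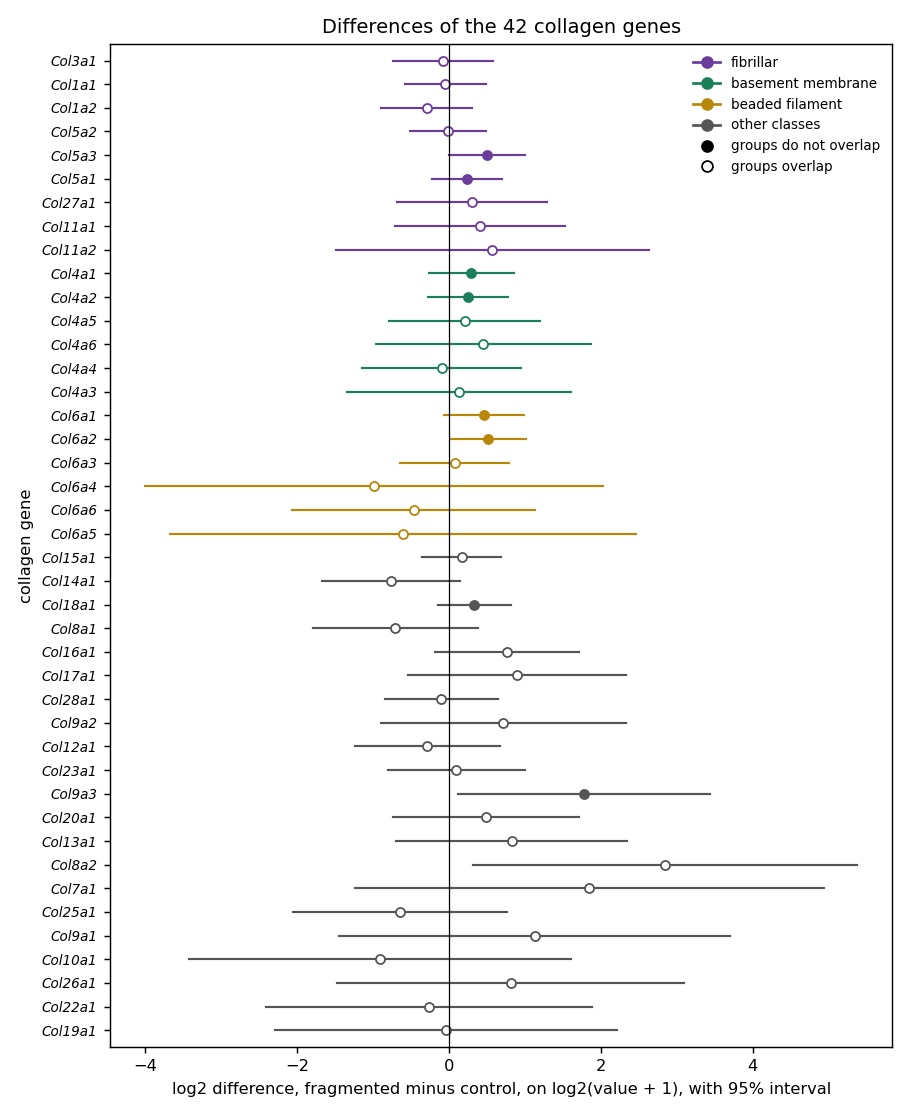
Log2 difference (fragmented minus control, on log2(value + 1)) with its 95% interval from limma for each of the 42 collagen genes, coloured by class. Filled points mark the 8 genes whose groups do not overlap, all to the right of 0, and the interval includes 0 for all of the 42 except Col6a2, Col9a3 and Col8a2.

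The make-up of the collagen pool also differed in its means. Reads of the 42 genes made up 0.577% ± 0.0590 (SD, n = 3) of all reads in the fragmented mice and 0.515% ± 0.0395 in the controls, with overlapping groups. The widest 95% Wilson interval of a library was within 0.0036 percentage points of its share, which covers counting error only. Type IV genes took 25.8% ± 1.19 (SD, n = 3) of collagen reads in the fragmented mice and 21.8% ± 1.91 in the controls, with ranges of 25 to 27.1% and 20.4 to 24%. Type VI genes took 10.2% ± 0.185 and 8.53% ± 1.34, with ranges of 10.1 to 10.4% and 7.17 to 9.85%. For both classes every fragmented mouse was above every control. Fibrillar genes took 57.8% ± 2.33 and 63.2% ± 3.37, and here the fragmented mice were all below the controls, at 55.2 to 59.7% against 60.8 to 67%. Shares of a pool move against each other, so these are not separate results. The shares were computed with GC and length trends left in. With those removed, the groups of Col4a1, Col4a2 and Col6a1 overlapped, while those of Col6a2 stayed separate.

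Ratios between genes within a library do not depend on its size factor. The levels per kb of exon of the chains of type IV collagen, Col4a1 over Col4a2, stayed within 1.54 and 1.85 over the 6 libraries, with overlapping groups. Col6a1 over Col6a2 stayed within 2.33 and 2.83, and Col3a1 over Col1a1 within 1.69 and 2.20. The pairs that follow were chosen after their values were seen. Col4a1 over Col1a2 was 2.31, 2.19 and 2.32 in the fragmented mice and 1.95, 1.27 and 1.40 in the controls. Col6a1 over Col1a2 was 1.01, 0.902 and 0.966 against 0.765, 0.408 and 0.592. In both ratios all fragmented mice were above all controls, control 1 was nearest to them, and the groups stayed separate with GC and length trends removed. Over Col3a1 in place of Col1a2, Col4a1 was 0.731, 0.738 and 0.884 against 0.665, 0.544 and 0.602, and Col6a1 was 0.320, 0.304 and 0.369 against 0.261, 0.175 and 0.255. These groups too were separate, but both ratios overlapped with trends removed. Col5a3 over Col5a2 was 1.16, 1.12 and 1.09 against 0.897, 0.707 and 0.776, and its groups overlapped with trends removed. The type I pair, Col1a1 over Col1a2, was 1.44, 1.54 and 1.55 against 1.44, 1.16 and 1.24. Its groups were separate by a margin lost in rounding, between fragmented 1 and control 1, and overlapped with trends removed. Exon lengths came from another build than the one used for counting, which scales a ratio equally in every library.

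**Figure D3:**
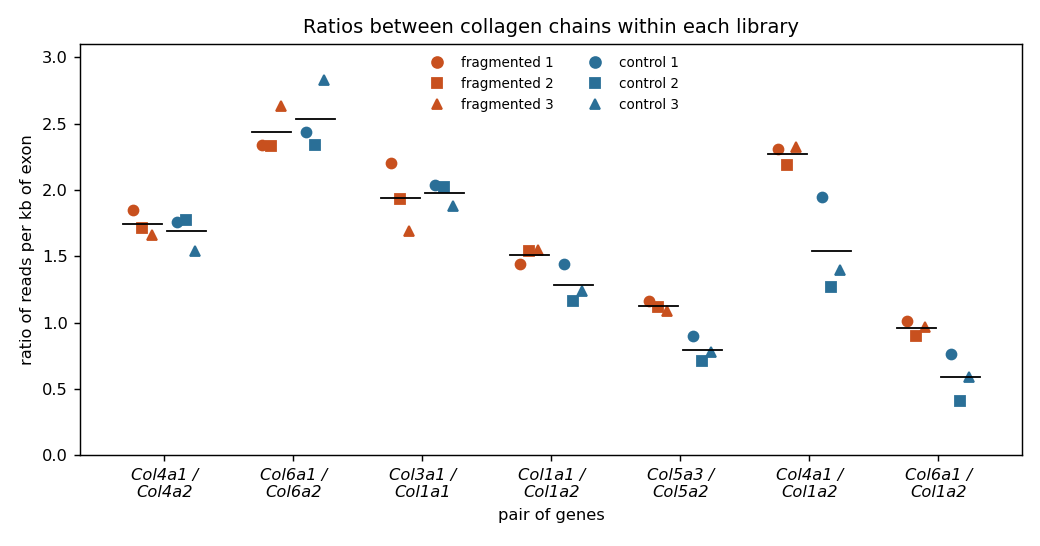
Ratio of reads per kb of exon between pairs of collagen genes within each library, 1 point per mouse with group means as bars. Col4a1 over Col4a2, Col6a1 over Col6a2 and Col3a1 over Col1a1 overlap between groups, while for Col5a3 over Col5a2, Col4a1 over Col1a2 and Col6a1 over Col1a2 the fragmented mice lie above all controls. For Col1a1 over Col1a2 they also lie above, but fragmented 1 and control 1 both round to 1.44.

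GC content moved with the differences. The median GC content of the longest transcript was 55.1% over the 42 collagen genes, 58.6% over the 8 with separate groups, and 49.1% over all genes tested. The deviation of a library from the gene mean had a Spearman rho with GC content, across genes, of -0.273 in control 2 and -0.273 in control 3, while the remaining 4 lay between 0.132 and 0.368. No p is given, since the points are genes of shared libraries. With trends removed, the log2 difference was nearer to 0 in 33 of the 42 genes and in all 8 with separate groups. The median over the 42 was then 0.13, beside 0.04 for all genes, and that of the 8 was 0.16, from -0.03 for Col4a2 to 1.41 for Col9a3. In the other direction, Col5a2 had 0.17 and Col1a1 -0.28 with trends removed.

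**Figure D4:**
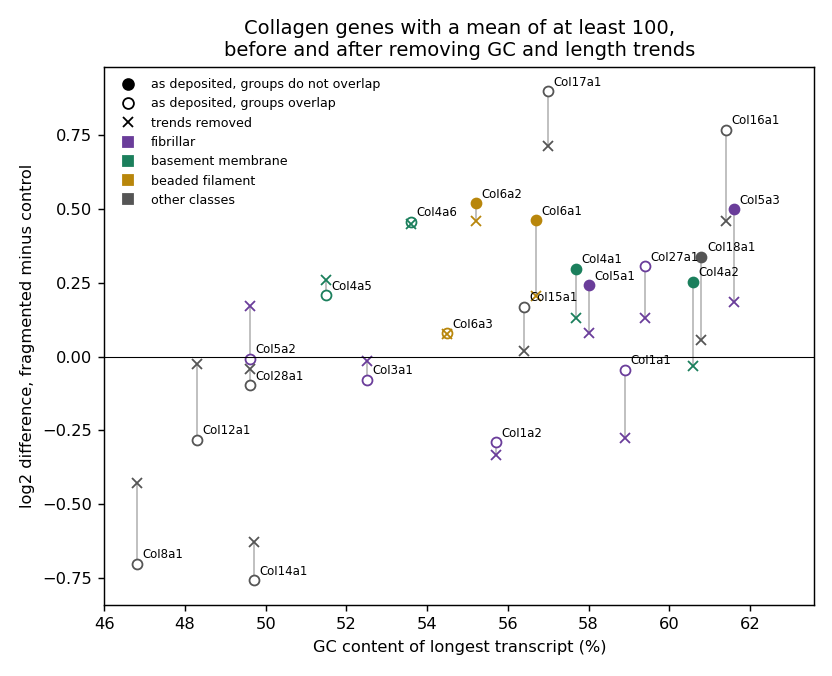
Log2 difference (fragmented minus control) of the 22 collagen genes with a mean of at least 100 against the GC content of the longest transcript, with circles for the deposited values (filled where groups do not overlap) and crosses after removal of GC and length trends. The 7 filled circles sit between 55.2 and 61.6% GC, and each of their crosses lies lower.

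Libraries differed in which collagens were high. Control 3 held the highest value of 13 members and fragmented 3 that of 12, while control 2 held the lowest of 11, control 1 of 10 and control 3 of 8. Ties at 0 were counted only for the first tied library, fragmented mice first. Ties left out in this way were Col10a1, Col26a1 and Col22a1 in control 3, Col26a1 and Col19a1 in control 2, and Col19a1 in control 1. Against control 1 alone, a comparison with 1 control mouse, the log2 differences of Col4a5 and Col17a1 were -0.28 and -0.31. The order of the libraries by Col17a1 was also their order by the summed skin keratinocyte markers, which were 2669 in fragmented 3, 2205 in control 1, 1722 in fragmented 2, 860 in fragmented 1, 577 in control 3 and 526 in control 2. Of that list, 7 of 7 markers were measured and 2 were at 0 in a library. Krt5, Krt14 and Trp63 held most of the sum. Krt10 did not follow the order, with 64.3 in fragmented 1, 48.0 in control 1 and 36.4 in fragmented 2. Lor was at most 7.59 and Dsg3 at most 6.07 in any library. Mammary epithelium markers, 7 of 7 measured, summed to between 24681 and 33121 in the fragmented mice and to 35104, 8099 and 9836 in controls 1 to 3. Fibroblast and progenitor markers, 8 of 8 measured, summed to between 30364 and 57345 in the fragmented mice and between 37298 and 50439 in the controls, and blood endothelium markers, 6 of 6, to between 14828 and 18466 and between 13972 and 15793. The groups overlapped in these 4 lists. Smooth muscle and pericyte markers, 6 of 6, summed to between 11639 and 18532 in the fragmented mice and between 8941 and 12854 in the controls, also overlapping. Schwann cell markers, 5 of 5, did not overlap, at 7410, 4012 and 4832 in the fragmented mice and 3920, 3543 and 3755 in the controls. Summed adipocyte markers were lowest in control 2, at 116928, and control 3, at 146796. The members of that list did not all go this way. Fabp4, Lipe, Cidec and Adipoq were lowest in these libraries and Plin4 was lowest in control 2. Lep and Plin1 were highest in control 3. The part of these cells in the collagen values was not tested. Cartilage markers, 4 of 5 in the table, summed to at most 38.4 in every library.

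**Figure D5:**
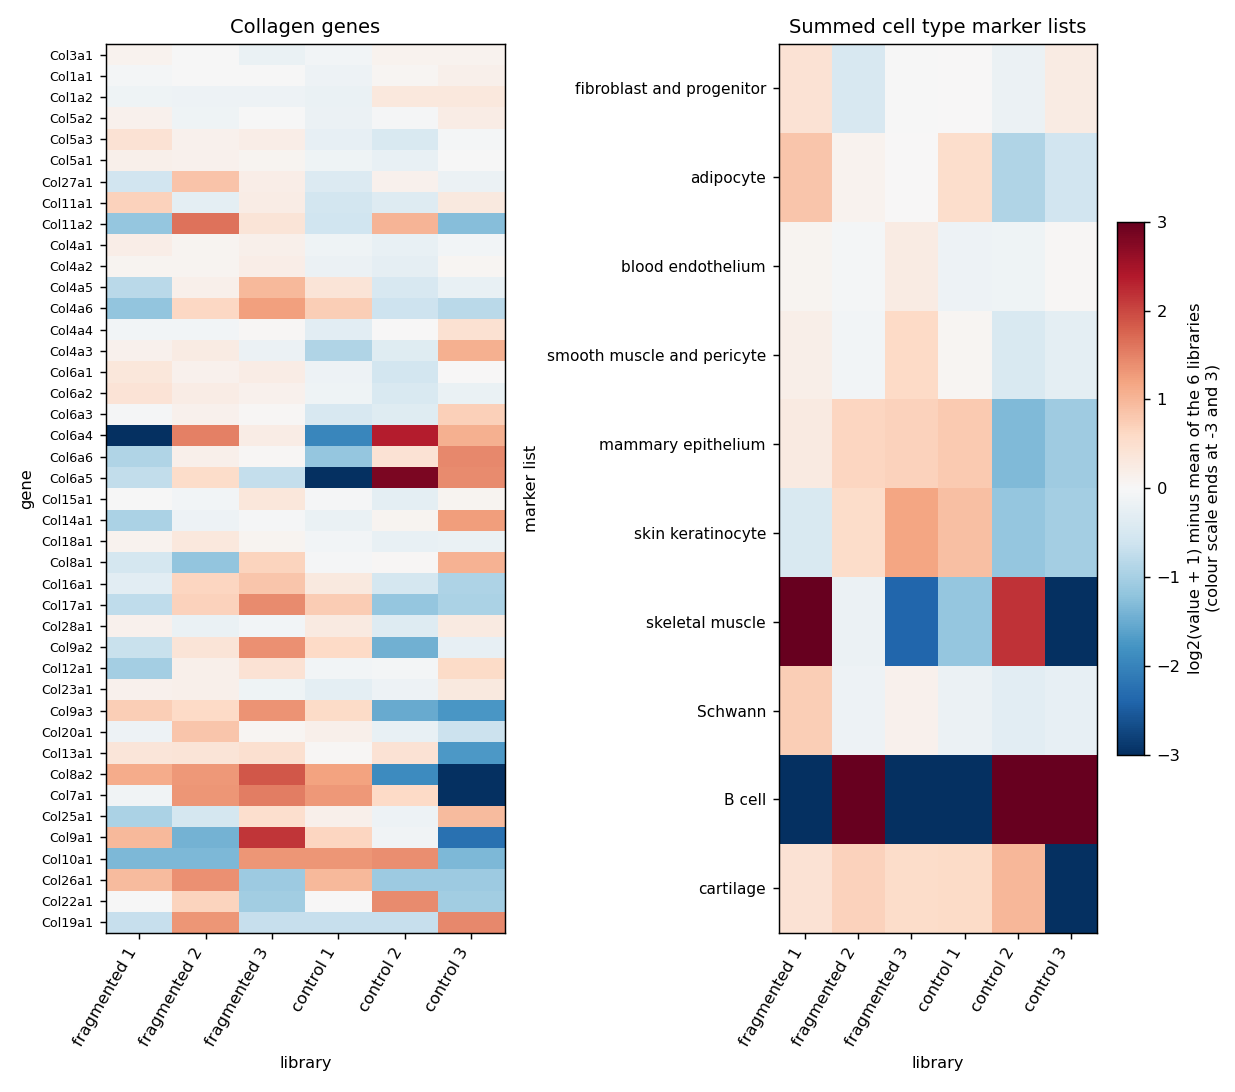
Log2(value + 1) minus the mean of the 6 libraries for the 42 collagen genes (left, ordered by class and level) and for summed cell type marker lists (right), with the colour scale ending at -3 and 3. Abundant fibrillar and type IV genes are near white throughout, while Col6a4 and Col6a5 are highest in control 2 and Col8a2 and Col7a1 lowest in control 3.

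Genes that act on collagen were examined from lists chosen with earlier results of these data known. All values of these lists have GC and length trends left in. Of 31 processing enzymes, which hydroxylate, fold, trim and cross-link collagen chains, 25 were above 0 and the median log2 difference was 0.27. In 4 of the 31 all fragmented mice were above all controls, and in 0 below, beside 5.02% and 3.58% of all genes. These were Pcolce, an enhancer of procollagen trimming, at 1.44 (SE 0.38), and the prolyl 3-hydroxylases P3h1 at 0.42 (SE 0.27), P3h2 at 0.72 (SE 0.35) and P3h3 at 0.83 (SE 0.33). P4hb, a subunit of prolyl 4-hydroxylase, had 0.02, and the cross-linking enzyme Lox had -0.37. Of 14 receptors, 4 were above 0 with a median of -0.22, and Itgb1, the beta-1 integrin, had -0.06 and Adgrg1, a receptor for type III collagen, 0.50. Of 16 degradation genes 9 were above 0 with a median of 0.03. Mmp9, a gelatinase that cleaves type IV collagen, had 275, 237 and 193 in the fragmented mice and 297, 590.0 and 345 in the controls, all fragmented mice below all controls, at -0.75 (SE 0.33, limma adjusted p = 0.697). The protease Ctsb and the inhibitor Timp2 had -0.16 and 0.02.

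Of 19 fibril partners 10 were above 0, with a median of 0.26. Separate groups were higher in 2 of the 19 and lower in 1, beside 5.02% and 3.58% of all genes. The same shares of all genes stand beside the 2 lists that follow. Sparc, a collagen-binding protein, had 0.46, and Dcn, the proteoglycan decorin, had -0.21. Mfap2, a microfibril protein, had 1.21 (SE 0.42) with all fragmented mice above all controls, while Fn1, fibronectin, had -0.50 (SE 0.29) with all below. The scarce Comp also had all fragmented mice above all controls, at 1.69 (SE 1.08). Its values were 20.73, 18.96 and 17.15 in the fragmented mice and 13.86, 14.69 and 0 in controls 1 to 3. The size of the Comp difference depends largely on the 0 reads of control 3 and on the pseudocount. Of 14 basement membrane partners of type IV collagen 11 were above 0 with a median of 0.06, and the groups of all 14 overlapped. Nid1, which ties laminin to type IV collagen, had -0.19 and Hspg2, the proteoglycan perlecan, 0.05. Of 16 regulators of matrix genes 10 were above 0, with a median of 0.19 and overlapping groups in all 16. The most abundant were Tgfbr2, a receptor for TGF-beta, at -0.38 and the GC box binding factor Sp1 at -0.59. The pair under an unadjusted p of 0.05, named for that after their values were seen, were higher, Ccn1, a matrix-associated signalling protein, at 1.79 (SE 0.55) and the transcription factor Cebpb at 1.48 (SE 0.54). By limma, edgeR and DESeq2, 0 of all genes passed, so none in these 6 lists did. At an unadjusted limma p under 0.05 were 3 processing enzymes, 1 degradation gene, 1 fibril partner, 2 regulators, 0 receptors and 0 basement membrane partners, beside 3.24% of all genes higher and 2.14% lower.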

How the data were processed

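RNA sequencing was run on inguinal fat of 6 mice, 3 per group. Per the submitters' processing notes, CASAVA, HISAT2 2.0.5 and featureCounts 1.5.0-p3 were named, with genome build mm8. Their settings are not given in the sources used here. The values deposited by the authors are a signal: counts of reads that had been scaled by a size factor. Taking the smallest nonzero value of a library as 1 read turned 100% of values into whole reads, within 0.02, and the libraries then held 15610201 to 19703569 reads. Symbols came from a table of identifiers, with 33 unmatched. limma 3.58.1 (R 4.3.3) with an intensity trend was run on log2(value + 1) over all genes with a mean of at least 1. Recovered reads went into edgeR 4.0.16 and DESeq2 1.42.0, where 118 adjusted p-values were NA. The fits were run on simulated counts with the same dispersion in every gene and no GC trend or mixed tissue. That simulation cannot show how they behave with the uneven libraries here. The p-values set a group difference against the spread between these mice, and were adjusted over the genes tested. Differences are on the log2(value + 1) scale, where those of low genes depend on the pseudocount. Exon lengths and GC content came from GENCODE M21 and covered 99.87% of genes tested, and splines (4 degrees of freedom) took out their trends. Named were the 3 members of each class highest per kb, those with separate groups, the 5 largest differences at a mean of at least 10 and the 5 smallest p-values. From each related list, the 2 most abundant genes and those with separate groups were named. Members, lists and tests were chosen with earlier results of these data known.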

Additional observations from a re-analysis of the deposited data

How the results depend on the processing

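The count of 0 collagen genes past the FDR was the same in all settings that kept the 6 mice. With 1 mouse left out it ranged from 0 to 1 and that of all genes from 0 to 844, both highest without control 1. With any 1 mouse left out, more of all genes had separate groups than with all 6 mice (5.02% higher and 3.58% lower). Collagen genes with separate groups then ranged from 9 to 17. They were 9 higher and 0 lower without fragmented 2, where 8.87% of all genes were separate and higher and 7.87% lower. Without control 1 they were 12 higher and 5 lower, beside 22.5% and 19.1% of all genes. They numbered 15 without fragmented 1 and control 2 (all genes 15.5% higher and 12.5% lower), 20 without controls 2 and 3 (chosen after seeing the data, all genes 15.9% and 19.2%) and 1 with GC and length trends removed. With 1 mouse left out, class medians ranged from -0.041 to 0.257 (fibrillar), from 0.083 to 0.273 (type IV) and from -0.649 to 0.295 (type VI), and that of all 42 from 0.118 to 0.273. The fibrillar median was 0.086 without fragmented 1 and control 2. Without controls 2 and 3 the type VI median was 0.72 and that of other classes -0.082. These differences turned sign with 1 mouse left out: Col3a1 (-0.15 to 0.005), Col1a1 (-0.133 to 0.024), Col4a5 (-0.22 to 0.66), Col6a3 (-0.14 to 0.45), Col6a4 (-2.20 to 0.38) and Col7a1 (-0.021 to 2.965, and 3.119 without fragmented 1 and control 2). With library size alone, which moved the median of all genes from 0.023 to 0.135, Col3a1 had 0.041 and Col1a1 0.074. Col6a3 had -0.003 with edgeR, -0.023 with DESeq2, -0.15 with quality weights and -0.040 without fragmented 1 and control 2, where Col6a4 had 1.32. Without controls 2 and 3, Col3a1, Col1a1 and Col1a2 had 0.053, 0.130 and 0.061, and Col4a5, Col7a1, Col17a1 and Col6a4 had -0.28, -0.38, -0.31 and 1.46. Col4a2 had -0.032 with trends removed. The cause was not tested. The labels do not say that a replicate number marks a shared factor. Deviations of same-numbered mice correlated across genes at 0.177, 0.393 and 0.042, and since the last is under 0.1 the numbers were not taken as pairs. With the replicate block 0 collagen genes and 0 of all genes passed, and fragmented 3 correlated best with control 1.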
